A study of Mus musculus with 9 samples.

Results

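The 8 genes described here encode cell-surface receptors for attractants made in inflamed and barrier tissues: Cxcr3, Cxcr4, Cxcr6, Ccr2, Ccr4, Ccr8, Gpr15 and Ltb4r1. They were chosen by symbol, with earlier results of these data known, from a table of 22017 gene symbols. All 8 were listed in it. RNA sequencing measured them in 9 libraries of wild-type C57BL/6 mouse T cells, 3 from each of 3 culture histories. All cells began as naive T cells of the spleen. They were activated for 3 days with anti-CD3 and anti-CD28, held for 2 days in cytokines alone, given 100 U/mL of IL-2 starting on day 5, and restimulated from day 7 for 3 days with both antibodies at 0.05 ug/mL and IL-2. Th1-1 cells had the Th1 condition (IL-12 at 10 ng/mL and anti-IL-4) at both activations. Th17-17 cells had the Th17 condition (TGF-b at 1 ng/mL, IL-6 at 20 ng/mL, IL-1b at 10 ng/mL and antibodies to IFN-g, IL-12 and IL-4) at both. Th17-1 cells had the Th17 condition first and the Th1 condition from day 7 on. RNA was taken on day 10, when the cells were still in these media, so a lasting cell state and a response to the medium cannot be told apart. No genetic change or fate reporter is named in the labels, so Th17-1 marks a culture history and not sorted cells that once made IL-17.

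Chemoattractant receptors are multi-pass membrane proteins that couple mainly to inhibitory G proteins and turn a gradient of ligand outside the cell into integrin activation and directed crawling. T helper subsets carry different sets of them, and the set largely decides which tissue a cell can enter. CXCR3 is the classic receptor of Th1 cells at sites of interferon, CCR4 and CCR8 are known from Th2, regulatory and skin-homing T cells, GPR15 directs T cells to the large intestine, and BLT1, the product of Ltb4r1, senses the lipid leukotriene B4.

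The receptor genes fell into different patterns across the 3 histories. Cxcr3, Cxcr6 and Ccr2 were highest in Th1-1 cells. Gpr15 was low there and stood far higher in both groups that began in the Th17 condition. Ccr4 was also higher in those groups, with means 2.71 (Th17-1) and 2.09 (Th17-17) times that of Th1-1. Ccr8 was abundant in Th17-17 cells alone among the 3 groups, and Ltb4r1 was highest in Th17-1 cells. Cxcr4 also had its highest mean in Th17-1, where it was called against Th1-1 and not against Th17-17. The plot of the values of each library shows these patterns side by side.

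**Figure D1:**
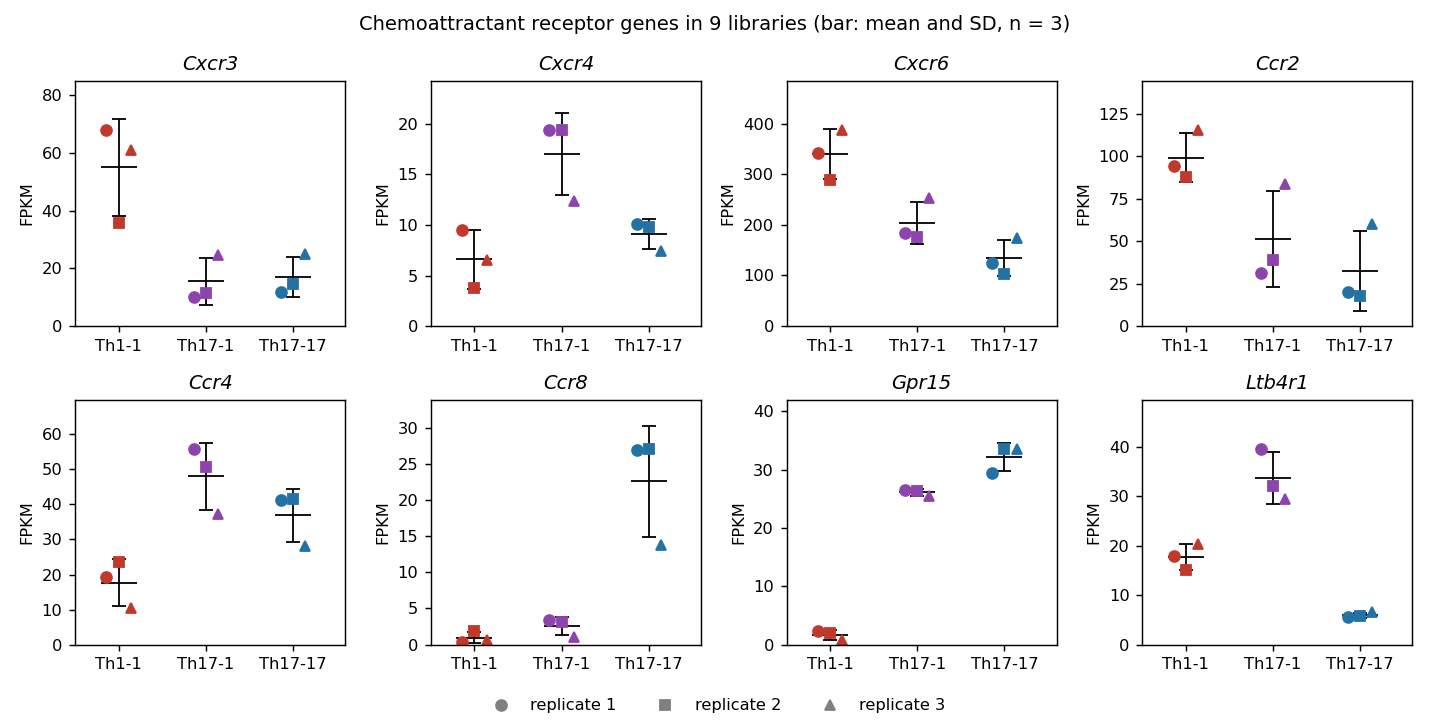
FPKM (linear axis from 0, a separate scale for each gene) of the 8 receptor genes in each of the 9 libraries by group, with marker shapes for the replicate numbers and black bars for the mean and SD of 3 libraries. Gpr15 lay at 25.5 FPKM or more in all 6 libraries that began in the Th17 condition and at 2.39 FPKM or less in Th1-1, and Ltb4r1 was highest in the 3 Th17-1 libraries.

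Values are FPKM, fragments scaled by transcript length and library total, and they allow levels of different genes to be compared per length. The read depth behind them is unknown, because the table holds no counts. FPKM summed to between 382581 and 405985 per library. Differences are on the scale of log2(FPKM + 1) with 95% intervals from limma, and a gene was called at a Benjamini-Hochberg adjusted p below 0.05 over 10538 tested genes. The median tested gene differed by -0.17, -0.12 and 0.05 log2 units in Th1-1 against Th17-17, Th17-1 against Th17-17 and Th17-1 against Th1-1. Replicates are numbered in the titles without saying whether they are separate animals or cultures, so the p-values cover only the spread among these libraries, which may be technical. All 10 T cell markers exceeded 1 FPKM, while the neutrophil markers S100a8, S100a9, Csf3r and Elane and the dendritic cell markers Flt3, Siglech and Cd209a were at 0 in all 9 libraries. Of the 8 NK markers, 5 exceeded 1 FPKM in some library and Klra4 was at 0. Their sum was 702 to 914 FPKM in Th1-1, 275 to 563 in Th17-1 and 194 to 436 in Th17-17, and most of it was Nkg7, a cytotoxic granule gene that T cells also use, with means of 701, 323 and 187 FPKM in the order of the Cxcr6 and Ccr2 means. Eomes, at 11.5, 6.86 and 28.8 FPKM, and Klrb1c, at 1.00, 0.273 and 4.64 FPKM, were highest in Th17-17 instead. Of 5 tested NK markers, 1 rose and 2 fell in Th1-1 relative to Th17-17. The part of these genes in the results was not tested. Replicate 3 of every group stood apart in Cd8a, at 104 to 141 FPKM against 15.3 to 54.9 in the other 6 libraries. Cd8a also varied by group. In replicates 1 and 2 it was at 15.3 and 19.0 FPKM in Th1-1, 17.4 and 27.4 in Th17-1, and 37.4 and 54.9 in Th17-17. Th17-17 had the most Cd8a at each replicate number, although Cd8a was not called in any comparison. In bulk RNA, fewer cells of a type and less RNA per cell cannot be told apart.

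Of the 8 receptor genes, 7 were called between Th1-1 and Th17-17, 4 higher and 3 lower in Th1-1, where 42.9% of all tested genes were called, 14% higher and 28.9% lower. In Th17-1 against Th17-17 the count was 2 of 8, 1 higher and 1 lower, beside 15.9% of all tested genes, 6.43% higher and 9.49% lower. In Th17-1 against Th1-1 it was 5 of 8, 4 higher and 1 lower, beside 10.5% of all tested genes, 5.67% higher and 4.81% lower. The 3 groups are shared among these comparisons, so the counts are not independent. The 8 genes were also chosen with earlier results of these data known, so their counts beside these shares are no test of receptor genes. Groups did not overlap for 7, 5 and 7 of the 8 genes in the same order, and for 52.9%, 43.2% and 29.2% of all tested genes. Without replicate 1 or without replicate 2 of Th17-1, 2 of the 5 calls against Th1-1 were left, and 3 without replicate 3 of Th1-1. Without replicate 3 of Th17-17, the count in Th17-1 against Th17-17 was 4. An exact permutation test of 3 libraries against 3 cannot give a p below 0.1, so calls rest on the spread that the fit shares over genes.

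**Figure D2:**
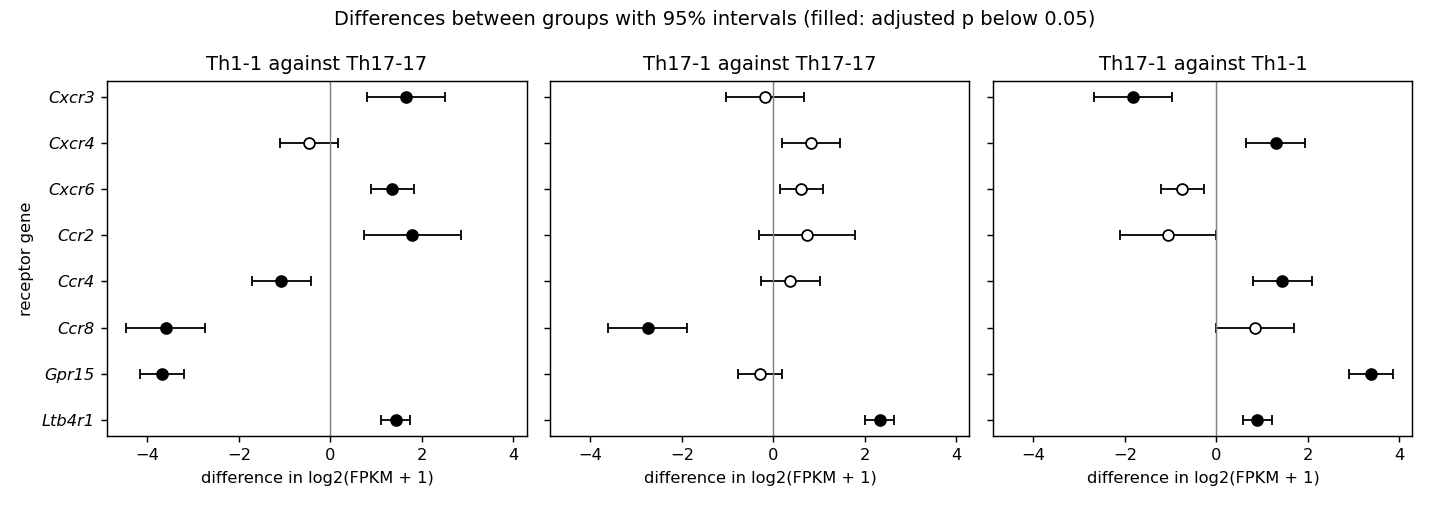
Difference in log2(FPKM + 1) of each receptor gene in the 3 comparisons, with 95% intervals from limma over 9 libraries. Filled points have an adjusted p below 0.05, and Gpr15 at 3.39 and Ccr8 at 0.85 in Th17-1 against Th1-1 are examples of a called and an uncalled difference.

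Upstream sequences of 4 of these genes are shown because each stands for another pattern: Ccr4 for genes higher in both groups that began in the Th17 condition, Ccr8 for the gene abundant in Th17-17, Ltb4r1 for the gene called higher in Th17-1 than in both other groups, and Cxcr6 for genes highest in Th1-1. Each is the 250 bases before the RefSeq start site on the GRCm38.p6 build, read 5′ to 3′ on the gene's strand. Ccr4 lies at chr9:114496545-114496794 on the minus strand, Ccr8 at chr9:120091883-120092132, Ltb4r1 at chr14:55765712-55765961 and Cxcr6 at chr9:123806227-123806476, these 3 on the plus strand. Capitals mark matches to the motifs searched.
Ccr4: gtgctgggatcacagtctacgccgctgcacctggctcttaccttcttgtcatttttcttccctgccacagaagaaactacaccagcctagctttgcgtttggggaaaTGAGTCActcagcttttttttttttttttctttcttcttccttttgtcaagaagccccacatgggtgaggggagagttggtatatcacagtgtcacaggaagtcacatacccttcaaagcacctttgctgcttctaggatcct
Ccr8: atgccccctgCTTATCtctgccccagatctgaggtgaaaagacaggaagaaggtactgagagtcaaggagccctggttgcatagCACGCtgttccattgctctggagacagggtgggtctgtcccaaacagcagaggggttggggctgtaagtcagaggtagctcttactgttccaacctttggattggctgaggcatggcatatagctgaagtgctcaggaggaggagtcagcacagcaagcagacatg
Ltb4r1: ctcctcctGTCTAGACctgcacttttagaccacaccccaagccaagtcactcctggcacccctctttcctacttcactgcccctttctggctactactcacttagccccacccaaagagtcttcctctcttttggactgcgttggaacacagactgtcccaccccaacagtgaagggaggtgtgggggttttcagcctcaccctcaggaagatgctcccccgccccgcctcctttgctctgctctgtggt
Cxcr6: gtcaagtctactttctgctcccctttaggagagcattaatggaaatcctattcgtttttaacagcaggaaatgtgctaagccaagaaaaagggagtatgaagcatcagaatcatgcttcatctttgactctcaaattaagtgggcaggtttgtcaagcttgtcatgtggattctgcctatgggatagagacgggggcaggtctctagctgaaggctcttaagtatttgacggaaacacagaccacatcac
The search covered both strands of the RefSeq windows, which run from 250 bases before to 50 after the start site, for all 8 genes. The AP-1 motif TGANTCA was found in 2 of the 8, as TGATTCA at 199 bases before the start of Gpr15 and TGAGTCA at 143 bases before that of Ccr4, and in 7.81% of all 32851 windows. The SMAD palindrome GTCTAGAC stood 242 bases before the start of Ltb4r1, and 70 windows (0.213%) hold it. GENCODE starts Gpr15 198 bases, Cxcr3 122 bases, Ccr2 233 bases and Ccr4 8372 bases before the RefSeq start, so the Gpr15 match lies at the GENCODE start of that gene. The AHR core GCGTG was in 3 of 8, Cxcr3 at 103 bases before the start, within its GENCODE exon, Cxcr4 at 39 bases and Ccr8 on the other strand at 166 bases, against 32.4% of all windows. The GATA motif GATAAG was in the Ccr8 window on the other strand (7.44% of all windows), and the TATA box motif TATAAA in that of Cxcr4 (13.6%), where the matches on both strands overlap. The T-box motif GGTGTGA (3.98% of all windows) and the STAT motif TTCNNNGAA (8.3%) were in 0 of 8. The Cxcr6 and Ccr2 windows held none of the 7 motifs. Base composition varied from 33.7% G and C in Gpr15 to 59.3% in Cxcr4, around a median of 52.67% over all windows. A match is a description of letters and not a site or a cause.

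Gpr15 encodes a receptor for the gut peptide GPR15L and is known for bringing T cells into the colon. It measured 2.39, 1.98 and 0.731 FPKM in Th1-1 replicates 1, 2 and 3. In Th17-1 it measured 26.5, 26.4 and 25.5 FPKM. The Th17-17 libraries had 29.5, 33.6 and 33.6 FPKM. All 6 libraries from cells that began in the Th17 condition lay far above the highest Th1-1 library, and Th17-1 lay just under Th17-17 with no overlap. Gpr15 was higher in Th17-1 than in Th1-1 by 3.39 log2 units (95% interval 2.90 to 3.87, adjusted p = 8.26e-05), a ratio of mean FPKM of 15.4. It was lower in Th1-1 than in Th17-17 by a difference of -3.68 (-4.16 to -3.19, adjusted p = 1.14e-05). Between Th17-1 and Th17-17 the difference was -0.29 (-0.77 to 0.19, adjusted p = 0.369), which leaves room for a loss of 0.77 log2 units. With a pseudocount of 5 FPKM the difference to Th1-1 was 2.22, where Th1-1 levels lie under the pseudocount. Gpr15 lies on chromosome 16 at 58717433 to 58719070 on the minus strand, and 204 of its 1638 exon bases (12.5%) are also exon of Cpox on the opposite strand. Cpox, a heme synthesis enzyme, measured 12.1 ± 4.29, 20.0 ± 4.06 and 21.1 ± 2.09 FPKM (SD, n = 3) in Th1-1, Th17-1 and Th17-17. Whether counting used strand is not given in the sources used here, so reads of the shared stretch cannot be assigned to one of them.

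Ltb4r1 encodes BLT1, the high-affinity leukotriene B4 receptor that draws neutrophils and effector T cells into inflamed tissue. Th1-1 libraries had 17.9, 15.1 and 20.3 FPKM. Th17-1 libraries had 39.7, 32.1 and 29.5 FPKM. Th17-17 libraries had 5.52, 5.68 and 6.55 FPKM. The 3 groups did not overlap anywhere, with Th17-1 at the top and Th17-17 at the bottom. Ltb4r1 was 5.00-fold higher in Th17-1 than in Th17-17 on the log2(FPKM + 1) scale (difference 2.32, 2.01 to 2.64, adjusted p = 5.03e-05). It was 1.85-fold higher in Th17-1 than in Th1-1 (0.89, 0.57 to 1.21, adjusted p = 0.00606), and 2.70-fold higher in Th1-1 than in Th17-17 (1.43, 1.11 to 1.75, adjusted p = 0.00016). It was the 1 receptor of the 8 called higher in Th17-1 than in both other groups, as were 95 of 10538 tested genes (0.901%), while 53 (0.503%) were called lower than in both. All 3 calls held in each of the 21 alternative settings tried. Ltb4r1 lies on chromosome 14 at 55765962 to 55768494 on the plus strand and shares no exon base with another annotated gene. The low-affinity receptor gene beside it, Ltb4r2, stayed at or under 0.131 FPKM in every library, below the filter.

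Ccr8 encodes the receptor of CCL1 and marks activated regulatory and skin-resident T cells. It measured 0.403, 1.86 and 0.618 FPKM in Th1-1. It measured 3.46, 3.06 and 1.09 FPKM in Th17-1. In Th17-17 it measured 26.9, 27.1 and 13.7 FPKM. The lowest Th17-17 library lay well above every library that ended in the Th1 condition, and Th1-1 and Th17-1 overlapped. Ccr8 was lower in Th17-1 than in Th17-17 (difference -2.75, -3.61 to -1.89, adjusted p = 0.00202) and lower in Th1-1 than in Th17-17 (-3.60, -4.46 to -2.74, adjusted p = 0.000236). With a pseudocount of 5 FPKM the second difference was -2.17. Between Th17-1 and Th1-1 the difference was 0.85 (-0.01 to 1.71, adjusted p = 0.195). Its mean in Th17-17 was 8.89 times that in Th17-1 while that of Gpr15 was 1.23 times, and the test of this difference between the genes was not run.

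Ccr4 encodes the receptor of CCL17 and CCL22, chemokines of skin and of dendritic cells. Its levels were 19.3, 23.5 and 10.4 FPKM in Th1-1. In Th17-1 they were 56.0, 50.8 and 37.4 FPKM. In Th17-17 they were 41.2, 41.4 and 28.3 FPKM. Th1-1 lay under both other groups without overlap, while Th17-1 and Th17-17 overlapped. Ccr4 was 2.72-fold higher in Th17-1 than in Th1-1 (1.44, 0.80 to 2.08, adjusted p = 0.0149), and lower in Th1-1 than in Th17-17 (-1.07, -1.71 to -0.43, adjusted p = 0.0151). Against Th17-17 the Th17-1 difference was 0.37 (-0.27 to 1.01, adjusted p = 0.389). The call against Th1-1 was lost without Th17-1 replicate 1 (adjusted p = 0.0683) or 2 (0.068), and the call between Th1-1 and Th17-17 without Th17-17 replicate 1 (0.0577) or 2 (0.0572).

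Cxcr3 encodes the receptor of the interferon-induced chemokines CXCL9, CXCL10 and CXCL11. It measured 68.0, 35.8 and 61.2 FPKM in Th1-1. It measured 10.2, 11.5 and 24.7 FPKM in Th17-1. In Th17-17 it measured 11.7, 14.6 and 24.8 FPKM. Every Th1-1 library lay above every other library, and the 2 groups that began in the Th17 condition covered nearly the same range. Cxcr3 was 3.13-fold higher in Th1-1 than in Th17-17 (1.65, 0.79 to 2.50, adjusted p = 0.00814). It was lower in Th17-1 than in Th1-1 (-1.82, -2.67 to -0.97, adjusted p = 0.0186). The call did not hold without Th1-1 replicate 1 (adjusted p = 0.0614) or 3 (0.076), or without Th17-1 replicate 1 (0.0778) or 2 (0.0848). The difference between Th17-1 and Th17-17 was -0.18 (-1.03 to 0.68, adjusted p = 0.771), so the interval allows up to 0.68 log2 units of gain. Tbx21, which encodes T-bet, a known activator of Cxcr3, was called in all 3 comparisons, with differences of 3.23 in Th1-1 against Th17-17 (adjusted p = 0.000117), 1.82 in Th17-1 against Th17-17 (adjusted p = 0.00436) and -1.40 in Th17-1 against Th1-1 (adjusted p = 0.0205). The last of these Tbx21 calls was lost without Th1-1 replicate 1 or 3 or Th17-1 replicate 1 or 2.

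Cxcr6 encodes the receptor of CXCL16 and is known for holding effector and resident T cells in tissue. It was the most abundant of the 8 genes per length in every library. Its levels were 342.8, 289.7 and 387.9 FPKM in Th1-1. In Th17-1 they were 184.2, 175.3 and 252.4 FPKM. In Th17-17 they were 125.2, 103.7 and 175.0 FPKM. The groups formed 3 steps without overlap, although the highest Th17-17 library almost reached the lowest Th17-1 library. Cxcr6 was 2.56-fold higher in Th1-1 than in Th17-17 (1.35, 0.88 to 1.82, adjusted p = 0.00132). Neither step of Th17-1 was called: the difference was 0.61 to Th17-17 (0.14 to 1.08, adjusted p = 0.0775) and -0.74 to Th1-1 (-1.21 to -0.27, adjusted p = 0.0535). Without replicate 3 of Th17-17 both were called (adjusted p = 0.024 and 0.0286). The second was also called without Th1-1 replicate 2 (0.0327) or Th17-1 replicate 3 (0.0291).

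Ccr2 encodes the receptor of CCL2 and related chemokines and serves monocytes and effector memory T cells. Th1-1 libraries had 94.2, 87.5 and 115.4 FPKM. Th17-1 libraries had 31.2, 38.9 and 83.4 FPKM. Th17-17 libraries had 20.0, 17.5 and 59.8 FPKM. Th1-1 stood above both other groups, which overlapped, and replicate 3 was the highest library of each group. Ccr2 was 3.46-fold higher in Th1-1 than in Th17-17 (1.79, 0.74 to 2.85, adjusted p = 0.0142), a call lost without Th17-17 replicate 1 (adjusted p = 0.058) or 2 (0.0575). The Th17-1 differences were 0.73 to Th17-17 (-0.32 to 1.79, adjusted p = 0.304) and -1.06 to Th1-1 (-2.12 to -0.00, adjusted p = 0.188). Without Th17-17 replicate 3 the first was called (adjusted p = 0.0489). Of 6758 distinct stretches of 50 bases in Ccr2 transcripts, 129 (1.91%) also occur in other genes, so a small part of its reads could be shared.

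Cxcr4 encodes the receptor of CXCL12, the chemokine of bone marrow and lymphoid stroma. It measured 9.52, 3.74 and 6.54 FPKM in Th1-1. It measured 19.4, 19.4 and 12.4 FPKM in Th17-1. In Th17-17 it measured 10.1, 9.77 and 7.45 FPKM. All 3 Th17-1 libraries lay above the other 6, while Th1-1 and Th17-17 overlapped. Cxcr4 was 2.45-fold higher in Th17-1 than in Th1-1 (1.30, 0.66 to 1.93, adjusted p = 0.0221). It was no longer called without Th1-1 replicate 3 (adjusted p = 0.0716), Th17-1 replicate 1 (0.0902) or Th17-1 replicate 2 (0.0959), and in a fit of the 2 groups only (0.0605). The difference to Th17-17 was 0.82 (0.18 to 1.46, adjusted p = 0.0794), and without Th1-1 replicate 1 (0.0499) or 2 (0.0215) it was called. Th1-1 and Th17-17 differed by -0.48 (-1.11 to 0.16, adjusted p = 0.197).

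The receptor genes also varied with the replicate number. Relative to the mean of replicates 1 and 2 on the log2(FPKM + 1) scale, Ccr2 in replicate 3 stood at 0.34, 1.24 and 1.63 in Th1-1, Th17-1 and Th17-17. Cxcr6 stood at 0.30, 0.49 and 0.61 and Cxcr3 at 0.30, 1.12 and 0.87. Ccr4 lay the other way, at -0.97, -0.50 and -0.53. Gpr15 moved little in both groups that began in the Th17 condition, at -0.05 and 0.09, and stood at -0.88 in Th1-1, where its levels were low. Ccr8 stood at -0.31, -1.03 and -0.93, Cxcr4 at 0.09, -0.61 and -0.37 and Ltb4r1 at 0.29, -0.27 and 0.19. The replicate 3 libraries had the most Cd8a and also the most Cd8b1, at 48.1 to 62.9 FPKM against 4.53 to 24.1 in the other 6. Both Cd8 genes were also highest in Th17-17 at each replicate number, so a covariate for them is partly tied to group. With a covariate for the averaged log2 levels of both Cd8 genes, the counts of called receptor genes were 7, 3 and 6 in Th1-1 against Th17-17, Th17-1 against Th17-17 and Th17-1 against Th1-1. Cxcr6 was called in both Th17-1 comparisons there (0.73, adjusted p = 0.0195, and -0.79, adjusted p = 0.0154). From replicates 1 and 2 alone the counts were 7, 4 and 6. Ccr2 was called there in both Th17-1 comparisons (0.86, adjusted p = 0.0194, and -1.36, adjusted p = 0.00751), and Cxcr4 against Th1-1 was not (1.53, adjusted p = 0.0609).

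**Figure D3:**
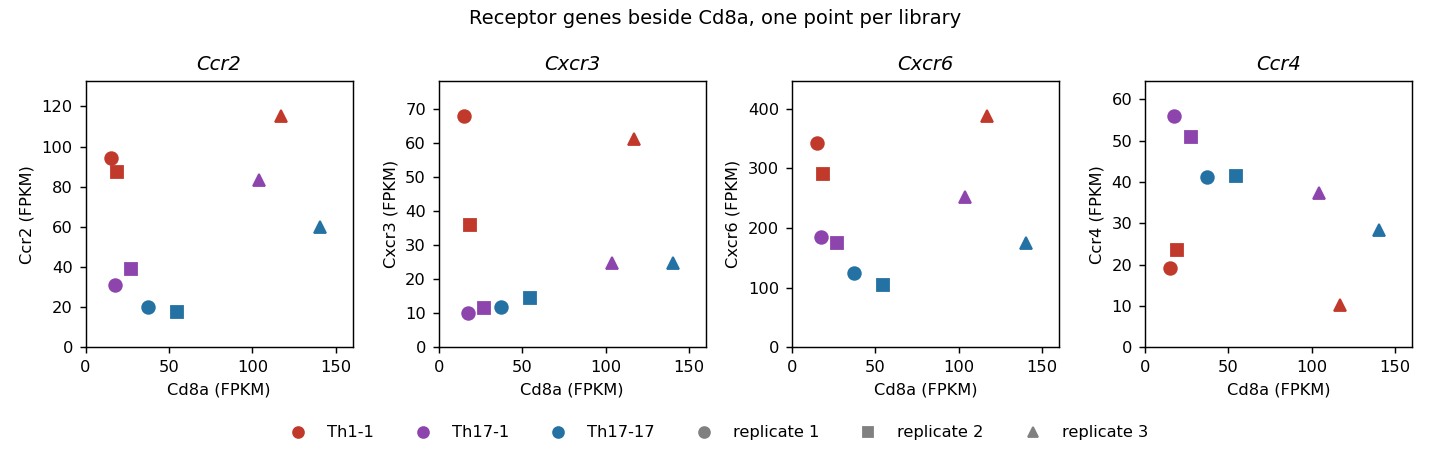
FPKM of Ccr2, Cxcr3, Cxcr6 and Ccr4 (vertical axes) against FPKM of Cd8a (horizontal axis), 1 point per library, with colours for groups and shapes for replicate numbers. The 3 libraries of replicate 3 (triangles) lie at 104 to 141 FPKM of Cd8a, where Ccr2 and Cxcr6 are the highest and Ccr4 the lowest of each group.

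The total and the make-up of the receptor messages differed too. Summed over the 8 genes, FPKM was 539 ± 73.1 (SD, n = 3) in Th1-1, 398 ± 59.5 in Th17-1 and 291 ± 51.1 in Th17-17, with ranges of 459 to 603, 357 to 466 and 253 to 349. Cxcr6 made up 63.1% ± 1.26, 51.0% ± 2.75 and 45.8% ± 4.62 of the sum in the same order. Cxcr3 made up 10.1% ± 2.23 in Th1-1 and 3.75% ± 1.36 and 5.74% ± 1.39 in Th17-1 and Th17-17. Ccr4 and Gpr15, small in Th1-1 at 3.44% ± 1.70 and 0.327% ± 0.179, reached 12.4% ± 3.86 and 6.67% ± 1.05 in Th17-1 and 13.2% ± 4.49 and 11.3% ± 1.85 in Th17-17. Ltb4r1 made up 3.29% ± 0.0696, 8.68% ± 2.21 and 2.05% ± 0.184. Ccr8 made up 8.19% ± 3.71 in Th17-17 and 0.675% ± 0.384 in Th17-1.

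**Figure D4:**
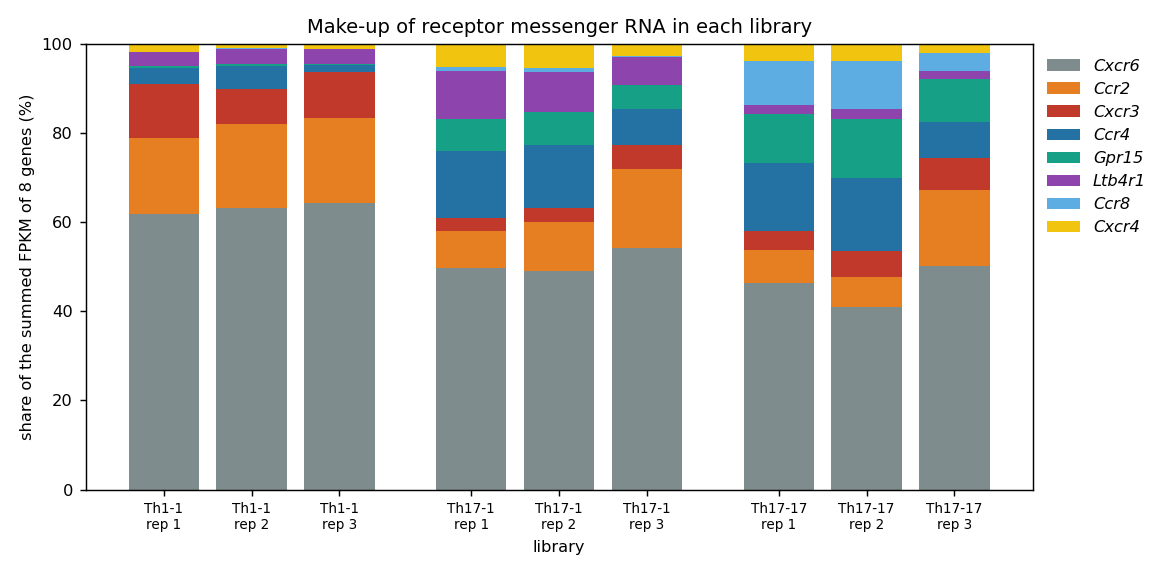
Share (%) of each receptor gene in the summed FPKM of the 8 genes, 1 stacked bar per library, grouped by culture history. Cxcr6 is the largest share in all 9 libraries, Ccr8 is visible mainly in Th17-17, and Ltb4r1 is widest in Th17-1.

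With the Th17-17 mean set to 0% and the Th1-1 mean to 100% on the log2(FPKM + 1) scale, Th17-1 lay at different places for the 7 genes called between them. Gpr15 was at 7.92%, near the Th17-17 end, and its difference to Th17-17 was not called. Ccr2 at 40.9% and Cxcr6 at 45.1% lay between the ends, but for both genes Th17-1 was called against neither end. Ccr8 was at 76.5%, and its difference to Th1-1 was not called. Cxcr3 at -10.6% and Ccr4 at -34.6% lay on the far side of Th17-17, each by a difference that was not called. Ltb4r1 at 162% lay beyond Th1-1. These positions describe means and share the libraries of both ends.

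Among 37 other chemoattractant receptor genes, 17 passed the filter. Th1-1 against Th17-17 gave 9 higher and 5 lower, with a median difference of 0.84 beside -0.17 over all genes. In Th17-1 against Th17-17, 7 were higher and 3 lower (median 0.56 beside -0.12), and against Th1-1, 3 were higher and 0 lower (median -0.06 beside 0.05). Of all tested genes, 14%, 6.43% and 5.67% were higher and 28.9%, 9.49% and 4.81% lower in these comparisons, in the same order. The 3 genes higher in Th17-1 than in Th1-1 were the lymph node receptor gene Ccr7 (2.21, adjusted p = 0.00124), the tissue exit receptor gene S1pr1 (1.93, adjusted p = 0.00289) and the mucosal receptor gene Ccr6 (1.83, adjusted p = 0.000685). In Th17-1 and Th17-17, Ccr7 was at 140 ± 11.7 and 140 ± 35.3 FPKM, a difference of 0.03 (-0.51 to 0.56, adjusted p = 0.947). S1pr1 was lower in Th17-1 than in Th17-17 (-1.10, adjusted p = 0.019), a call lost without Th17-1 replicate 1 or Th17-17 replicate 1 or 2. Ccr6 was not called there (0.32, adjusted p = 0.223). The neutrophil-type receptor genes Cxcr1 and Cxcr2 were higher in Th17-1 than in Th17-17 (2.59, adjusted p = 0.00444, and 1.59, adjusted p = 0.00439). Both were also higher in Th1-1 than in Th17-17 (2.72, adjusted p = 0.00142, and 1.41, adjusted p = 0.00312). Neither was called between Th17-1 and Th1-1. Cxcr1 means were 22.6, 19.0 and 2.31 FPKM in Th1-1, Th17-1 and Th17-17. Cxcr2 was listed at 0 in all 3 Th17-17 libraries, at 2.98, 2.09 and 1.22 FPKM in Th17-1 and at 2.71, 0.955 and 1.58 FPKM in Th1-1. The neutrophil marker Ly6g was among the genes called higher in Th17-1 than in both other groups, beside S100a8, S100a9, Csf3r and Elane at 0. Cx3cr1, the fractalkine receptor gene, was lower in Th17-1 than in Th17-17 (-2.09, adjusted p = 0.000156), as was Cmklr1 (-1.20, adjusted p = 0.00176). These 2 genes were lower in Th1-1 than in Th17-17 as well (-2.21, adjusted p = 4.41e-05, and -0.80, adjusted p = 0.00443). Neither was called between Th17-1 and Th1-1. Cxcr5 did not pass the filter.

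Few ligand genes of the receptors reached 1 FPKM. Of 14 listed, 13 were in the table, 4 were at 0 throughout and 3 passed the filter. Mif, the most abundant of these, was at 257 ± 73.4, 276 ± 42.7 and 183 ± 34.5 FPKM in Th1-1, Th17-1 and Th17-17. It was not called in any comparison. Cxcl10, a ligand of CXCR3, measured 25.9, 7.19 and 24.6 FPKM in Th1-1. It measured 117, 100.6 and 56.5 FPKM in Th17-1 and 6.97, 5.21 and 12.0 FPKM in Th17-17. All Th17-1 libraries were above all others, and Cxcl10 was higher in Th17-1 than in Th17-17 (3.36, adjusted p = 0.0023) and than in Th1-1 (2.31, adjusted p = 0.0186), the second call being lost without Th17-1 replicate 1 or 2. Its receptor gene Cxcr3 was lower in Th17-1 than in Th1-1 in the same libraries. Ccl1, the CCR8 ligand gene, was lower in Th17-1 than in Th17-17 (-1.70, adjusted p = 0.0116) and than in Th1-1 (-2.14, adjusted p = 0.00667). Cxcl16 stayed at or under 0.161 FPKM. Of 6 genes of leukotriene B4 synthesis and breakdown, 2 were tested. Lta4h, which makes leukotriene B4, was at 50.5 ± 9.56, 59.4 ± 7.33 and 65.9 ± 5.02 FPKM and was not called. Ptgr1, which breaks it down, was lower in Th17-1 than in Th1-1 (-0.78, adjusted p = 0.0174), a call lost without Th1-1 replicate 3 or Th17-1 replicate 1 or 2.

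Downstream of the receptors, 24 signalling genes were tested. In Th1-1 against Th17-17, 4 were higher and 3 lower, beside 14% and 28.9% of all tested genes. In Th17-1 against Th17-17, 1 was higher and 4 lower, beside 6.43% and 9.49%, and in Th17-1 against Th1-1, 1 was higher and 5 lower, beside 5.67% and 4.81%. Gnai2, the main inhibitory G protein subunit of T cells, was at 350 ± 14.7, 327 ± 7.84 and 349 ± 15.5 FPKM. Rasgrp2, an activator of the integrin switch Rap1, was lower in Th17-1 than in Th17-17 (-1.74, adjusted p = 0.000741). It was also lower in Th1-1 than in Th17-17 (-2.58, adjusted p = 4.2e-05). Its means were 12.6, 23.5 and 81.4 FPKM in Th1-1, Th17-1 and Th17-17. Th17-1 was higher than Th1-1 (0.85, adjusted p = 0.0267), a call lost without Th1-1 replicate 1 or 3 or Th17-1 replicate 1 or 2. Pik3cg, the kinase driven by G protein subunits, was lower in Th17-1 than in Th17-17 (-0.89, adjusted p = 0.0007) and than in Th1-1 (-0.77, adjusted p = 0.00263). Of 15 tested genes that dampen or modify receptors, 5 rose and 8 fell in Th1-1 relative to Th17-17, and 1 was higher and 4 lower in Th17-1 than in Th17-17, and 3 higher and 2 lower in Th17-1 than in Th1-1. The shares of all tested genes are those just given, and the median differences of these genes were -0.28, -0.05 and 0.09. Rgs10, which shortens G protein signals, was at 6.71 ± 2.33, 18.1 ± 2.25 and 65.8 ± 18.0 FPKM and was called in all 3 comparisons, that against Th1-1 (1.34, adjusted p = 0.0121) being lost without Th17-1 replicate 2. Tpst1, which sulfates tyrosines of chemokine receptors, was higher in Th17-1 than in Th17-17 (1.24, adjusted p = 0.00217). It was also higher in Th1-1 than in Th17-17 (0.67, adjusted p = 0.0137), a call lost without Th17-17 replicate 1. Between Th17-1 and Th1-1 it was not called (0.57, adjusted p = 0.0722).

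Of 28 transcription factor genes linked in general knowledge to these receptors, 8 rose and 9 fell in Th1-1 relative to Th17-17, 7 were higher and 7 lower in Th17-1 than in Th17-17, and 8 higher and 2 lower in Th17-1 than in Th1-1. Of all tested genes, 42.9%, 15.9% and 10.5% were called in these comparisons, with 14% higher and 28.9% lower in the first. Tbx21 measured 85.9 ± 16.1, 33.0 ± 13.2 and 8.51 ± 3.33 FPKM in Th1-1, Th17-1 and Th17-17. Ahr, the aryl hydrocarbon receptor gene, known as an activator of Gpr15, was at 0.778 ± 0.306, 2.82 ± 1.01 and 13.0 ± 0.718 FPKM, with differences of -2.99 in Th1-1 against Th17-17 (adjusted p = 2.38e-05), -1.91 in Th17-1 against Th17-17 (adjusted p = 0.000537) and 1.08 in Th17-1 against Th1-1 (adjusted p = 0.0119). The last Ahr call was lost without Th1-1 replicate 3 or Th17-1 replicate 1. Foxp3, the regulator of regulatory T cells, was lower in Th17-1 than in Th17-17 (-1.69, adjusted p = 0.00686). It was also lower in Th1-1 than in Th17-17 (-2.81, adjusted p = 0.000272). Between Th17-1 and Th1-1 it was not called (1.11, adjusted p = 0.0504). Over all 6 regulatory T cell markers, 2 were higher, 1 lower and 3 not called in Th17-1 against Th17-17. Their sum was 577 to 666 FPKM in Th17-1 and 178 to 227 in Th17-17, with Il2ra, which other activated T cells express too, at 424 and 94.9 FPKM. Smad3, which carries TGF-b signals, was higher in Th17-1 than in Th17-17 (0.79, adjusted p = 0.00531). Smad7 was lower there (-1.14, adjusted p = 0.0162), a call lost without Th17-1 replicate 1 or Th17-17 replicate 1 or 2. Smad2 was not called there (-0.09, adjusted p = 0.621), and Gata3 was not called in any of the 3 comparisons. In Th1-1 against Th17-17, Smad3 was higher too (0.62, adjusted p = 0.00656) and Smad7 lower (-2.09, adjusted p = 0.000407). Smad3 was not called between Th17-1 and Th1-1 (0.17, adjusted p = 0.467). Klf2, a regulator of S1pr1, was lower in Th17-1 than in Th17-17 (-1.48, adjusted p = 0.00457) and higher than in Th1-1 (1.88, adjusted p = 0.00295).

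Genes whose log2(FPKM + 1) was most like that of each receptor over the 9 libraries, among 7952 candidates, were found by Pearson's r, which here reflects the 3 groups and the replicates that all genes share. For Gpr15 they were Rbm48 (r = 0.991), Abca3 (0.982) and Treml2 (0.980). For Ltb4r1 they were Marcks (0.981), Marcksl1 (0.975) and Eif4e3 (0.968). For Ccr8 they were Ttc13 (0.990), Spsb1 (0.990) and Zfp706 (0.988), and for Ccr4 Hs6st1 (0.979), Poglut1 (0.977) and Igfbp4 (0.975). Ccr2 was most like the granzyme gene Gzma (0.985), then Ppp1r16b (0.981) and Pdcd6ip (0.977). Cxcr6 was most like Sos2 (0.994), Plekho2 (0.989) and Serpinb6a (0.989), and Cxcr3 like Faim (0.990), Nod1 (0.987) and Lpin2 (0.981). For Cxcr4 they were Slfn3 (0.966), Cd2 (0.965) and Fez2 (0.955).

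Of the 8 genes, 4 lie on chromosome 9 of GRCm38. Cxcr6 (123806475 to 123811760, plus strand) and Ccr2 (124101950 to 124113557, plus strand) belong to a receptor cluster there, while Ccr4 (114490316 to 114504916, minus strand) and Ccr8 (120092114 to 120094906, plus strand) lie apart from it. Cxcr3 lies on chromosome X (101731535 to 101734269) and Cxcr4 on chromosome 1 (128588199 to 128592293), both on the minus strand. Of 16 genes in and around the cluster, 9 were tested, among them Cxcr6 and Ccr2. In Th1-1 against Th17-17, 5 were higher and 1 lower, beside 14% and 28.9% of all tested genes. Cxcr6 and Ccr2 were among the 5. In Th17-1 against Th17-17, 2 were higher and 0 lower, beside 6.43% and 9.49%. In Th17-1 against Th1-1, 0 were called, beside 10.5%. Fyco1, within whose span Cxcr6 lies on the opposite strand without shared exon bases, was the gene that was lower in Th1-1 (-0.55, adjusted p = 0.0326), opposite to Cxcr6. That call held in 13 of 21 alternatives and was lost, among others, without Th1-1 replicate 2 or 3 or Th17-17 replicate 1 or 2.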

How the data were processed

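Messenger RNA was measured in 9 libraries, and titles gave the groups and replicate numbers. FPKM values per gene symbol were deposited by the authors. Per the submitters' processing notes, HISAT2, DESeq2 and the mm10 build were used. Their versions and roles, the annotation, the use of strand and the treatment of multiply mapped reads were not given in the sources used here. Low FPKM values shared no steps (the commonest ratio between 2 libraries held for at most 1.14% of low genes, within 0.01 on the log2 scale), so counts could not be recovered and depth is unknown. FPKM depends on library composition, so scaling was varied.

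A gene was tested if 3 or more libraries had 1 FPKM or more (10538 genes, including all 8 receptors). limma (version 3.58.1, R 4.3.3) was fitted to log2(FPKM + 1) of all 9 libraries with a mean-variance trend, 6 residual degrees of freedom and no covariates, and two-sided p-values were adjusted by the Benjamini-Hochberg method over all tested genes. The fit was also run on simulated data with independent noise. That run held no shifts tied to replicate number, so it does not test the calls printed here. Differences of low genes are understated on this scale. Named genes were all 8 receptors, up to 4 called genes per direction of each related list and some key genes, of which part is printed, and for likeness the 3 highest correlations among genes of at least 5 FPKM on average. Ly6g and Fyco1 were singled out after their values were seen. Some genes under this rule are left out here. The receptors and lists were chosen with earlier results of these data known. Promoter windows came from RefSeq (GRCm38.p6), with all 8 genes matched by symbol, and gene positions from GENCODE M21 (GRCm38). The 21 alternatives were pseudocounts of 0.1 and 5 FPKM, 2 filters, a replicate block, 3 scalings, fits of 2 groups, robust moderation, a Cd8 covariate, replicates 1 and 2 only and the omission of each library. Tables and plots were made with Python 3.11.15, pandas 2.3.3, numpy 2.4.6 and matplotlib 3.10.9.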

Additional observations from a re-analysis of the deposited data

How the results depend on the processing

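Over 21 alternatives, Gpr15, Ltb4r1 and Ccr8 kept each of their calls, as did Cxcr6 and Cxcr3 in Th1-1 against Th17-17. Among 504 settings of a receptor and comparison, 472 had the outcome of the main fit, called or not called. A call was gained in 17 and lost in 15, and no called difference changed sign. The uncalled Cxcr3 difference between Th17-1 and Th17-17 ranged from -0.55 to 0.12. Leaving out each library, 5 to 7 receptor genes were called in Th1-1 against Th17-17, 2 to 4 in Th17-1 against Th17-17 and 2 to 6 in Th17-1 against Th1-1. Over all genes, 4526, 1678 and 1104 were called, with ranges of 3013 to 5400, 681 to 2342 and 315 to 1861 when a library was left out. From replicates 1 and 2 only, 1036 genes and 4 receptors were called in Th17-1 against Th17-17 and 596 genes in Th17-1 against Th1-1, where a fit of the 2 groups only called 692.

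Scaling moved the median gene, from -0.17 to -0.02 in Th1-1 against Th17-17 with median-ratio scaling. The share of called genes that were higher was in that comparison 32.7% for the deposited values, 26.7% after scaling to equal sums, 53.8% after median-ratio and 45.6% after quantile scaling. In the same order it was 40.4%, 37.7%, 63% and 54.5% in Th17-1 against Th17-17, and 54.1%, 61.2%, 45.6% and 45.3% in Th17-1 against Th1-1. The receptor counts stayed at 7, 2 and 5 under all 3 scalings. The depth behind each value is unknown, which limits what can be said of Ccr8 and Gpr15 in Th1-1.

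With the replicate number as a block, 7, 3 and 7 receptor genes and 4452, 1681 and 1255 genes were called. The block added Cxcr6 in both Th17-1 comparisons (adjusted p = 0.00657 against Th17-17 and 0.00516 against Th1-1) and Ccr2 against Th1-1 (0.0398). Deviations of same-numbered libraries correlated at -0.178 to 0.659 (median 0.0648 over 9 pairs). Those of differently numbered libraries correlated at -0.646 to 0.459 (median -0.0627 over 18 pairs). Of 9 libraries, 5 correlated best with their own number. These values do not settle whether the numbers pair the samples. The titles do not state a pairing, so the main fit has no block. Of 119 calls of genes in the related lists, 73 held in every alternative and 0 changed sign. From replicates 1 and 2 only, the calls of Cxcr1, Foxp3 and Smad3 in Th17-1 against Th17-17 and both calls of Ccl1 were lost. The Smad3 call in Th1-1 against Th17-17 was lost as well.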
